A study of Mus musculus with 8 samples.

Results

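Transcripts of 10 genes of the kidney brush border were examined in 8 mouse kidney libraries: the hydrolases Mep1a, Mep1b, Dpp4, Ggt1, Dpep1 and Treh, and the microvillus proteins Vil1, Cdhr2, Cdhr5 and Pdzk1. The 10 genes were listed by name for this role, with earlier results of these data known, and all 10 were found among the 15948 genes of the deposited table. The libraries were 3 labelled Arhgef11Sglt2_DOCA and 5 labelled Sglt2Cre_DOCA. The study's title names systemic and proximal tubule knockouts of Arhgef11, which encodes a guanine nucleotide exchange factor, in hypertension and kidney injury. By their names both groups received DOCA, in hypertension research the mineralocorticoid deoxycorticosterone acetate, and both names hold Sglt2, a glucose transporter that marks the early proximal tubule. In the Sglt2Cre_DOCA group it stands before Cre, the recombinase. Strain, age, dose, duration and floxed allele are not stated, and samples of untreated mice were not analysed here. The libraries carry separate numbers, but the labels do not say that each came from its own animal. The p-values therefore measure the spread between these samples, which may in part be technical.

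The brush border is the dense carpet of microvilli on the apical face of proximal tubule cells. Its membrane carries peptidases and glycosidases that split filtered peptides, glutathione and sugars into units that the cell takes up. Bundled actin filaments give each microvillus its core, protocadherins link neighbouring tips, and scaffold proteins hold transporters at the membrane. RNA of the whole kidney was measured, so fewer proximal tubule cells and less of a transcript per cell cannot be told apart.

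The deposited values are log2 expression after variance stabilization. Each was also converted back to a normalized count, a read number scaled to be comparable between libraries. Folds are ratios of group means of normalized counts. Log2 differences, standard errors and tests are on the deposited log2 scale, which shrinks differences of low transcripts. A gene is said to have risen or fallen where the limma p, adjusted over all 15948 genes by the Benjamini-Hochberg method, was under 0.05.

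Normalized counts summed to 43039280 to 45657416 in the Arhgef11Sglt2_DOCA libraries and to 45181960 to 46676184 in the Sglt2Cre_DOCA libraries. The targeted transcript did not check the labels. Arhgef11 had 2935, 3919 and 3905 normalized counts in the Arhgef11Sglt2_DOCA libraries, against 3479 to 3928 in the Sglt2Cre_DOCA libraries (limma adjusted p = 0.834), and a whole-gene value in whole kidney cannot show a deletion limited to part of the gene or to 1 cell type. All directions below therefore refer to libraries as labelled. Y-linked transcripts were present in all 8 libraries. Of the early proximal tubule markers 2 of 15 fell (Slc34a1 and Lrp2), of the late proximal tubule markers 3 of 9 fell (Slc7a13, Slc22a30 and Acy3), and of the injured tubule markers 2 of 11 rose (Lcn2 and Krt20). None passed among the markers of thick ascending limb, distal tubule and collecting duct, podocytes, endothelium, fibroblasts, macrophages and T lymphocytes. The thick ascending limb markers were lower all the same, with 4 of 5 negative. Their median log2 difference was -0.40, beside -0.34 for the early proximal tubule markers. Of these 5 genes 3 were lower without overlap between the groups, as were 8.14% of all genes. No marker was at 0 in any library. The Arhgef11Sglt2_DOCA libraries differed among themselves in marker levels. Relative to the Sglt2Cre_DOCA mean, the mean of 15 early proximal tubule markers was -0.58, 0.14 and -0.53 on the log2 scale in replicates 1, 2 and 3, and the mean of 11 injured tubule markers was 1.17, 0.34 and 0.27. The Sglt2Cre_DOCA libraries ran from -0.07 to 0.09 for the early proximal tubule markers and from -0.37 to 0.25 for the injured tubule markers. The part of these marker differences in the results below was not tested. Values relative to the early proximal tubule markers are also given below. Those markers are transcripts of which some themselves fell, so such values cannot separate cell number from the level per cell.

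Both meprin subunits were lower in the Arhgef11Sglt2_DOCA kidneys, Mep1b by 2.38-fold and Mep1a by 1.56-fold. The other 8 members did not pass the threshold. All 10 had a negative log2 difference on the deposited scale, where 52.1% of all genes were negative, but the difference of 5 members turned positive when each library was expressed relative to its early proximal tubule markers (Dpp4, Treh, Vil1, Cdhr2 and Cdhr5). Of the 10 members, 2 (20%) fell, where 1.59% of all genes fell, and none rose, where 0.627% of all genes rose. At an unadjusted limma p under 0.05, 6 members were lower and none was higher, against 12.1% of all genes lower. The groups did not overlap for 4 members, Mep1a, Mep1b, Ggt1 and Pdzk1, all lower in the Arhgef11Sglt2_DOCA libraries, as were 8.14% of all genes. The median log2 difference was -0.43 over the 6 hydrolases and -0.17 over the 4 microvillus genes, beside -0.007 over all genes. The members are abundant transcripts, and among the 3444 genes at least as abundant as the lowest of them 3.86% fell and the median was -0.013. Among those 3444 genes 618 were lower at an unadjusted limma p under 0.05, and 12.9% were lower without overlap. With the libraries scaled to equal totals, the calls over all genes split into 168 higher and 225 lower, in place of 100 higher and 254 lower, and the same number of members fell. Relative to the early proximal tubule markers, where the median of all genes shifted to 0.32, the balance turned to 425 higher and 39 lower, and 1 member, Mep1b, fell.

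**Figure D1:**
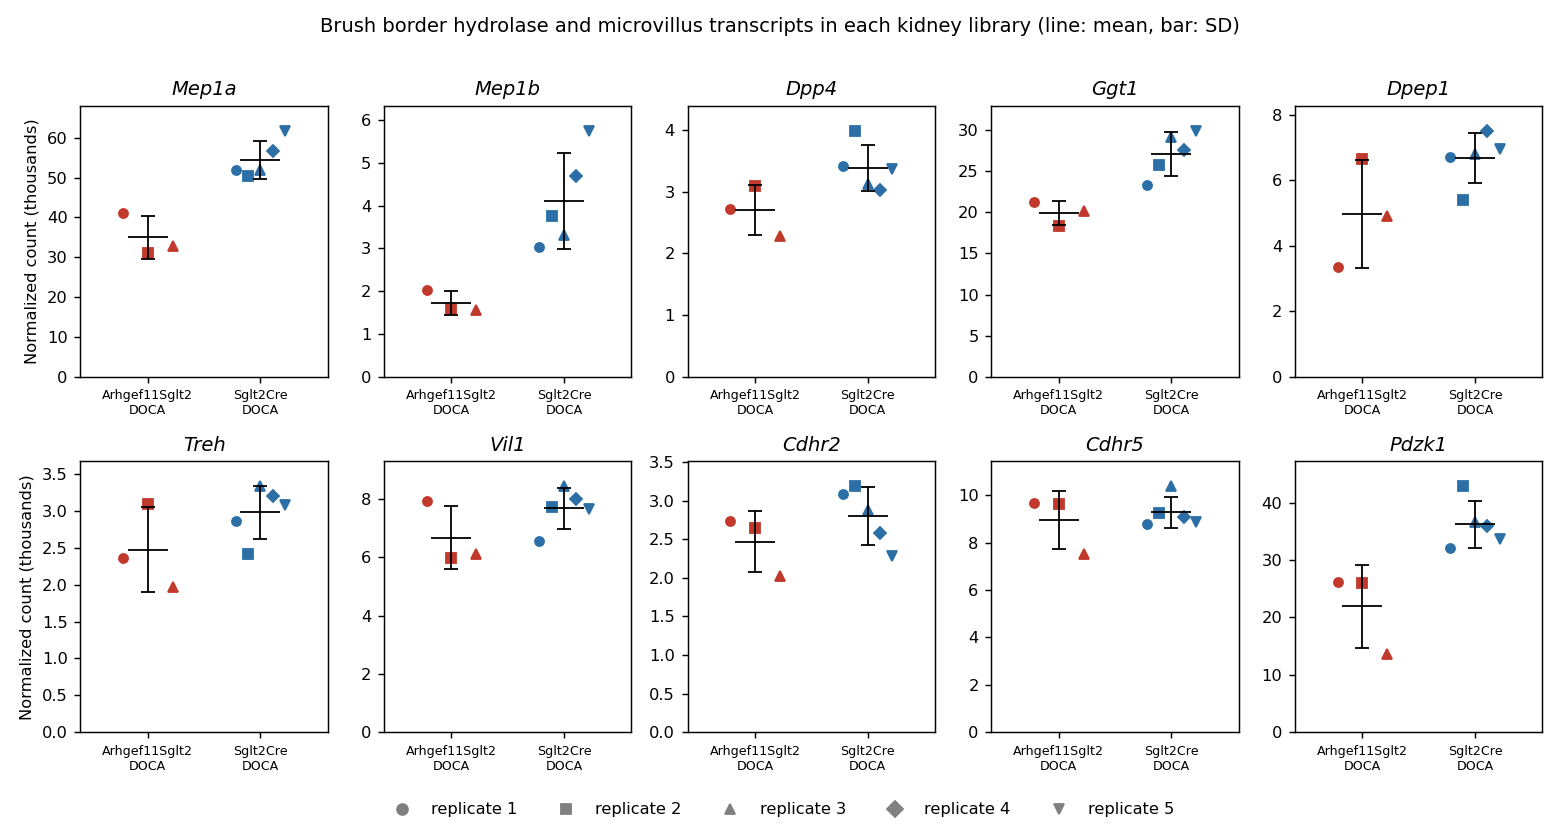
Normalized counts (linear axes from 0, scaled as labelled) of the 10 members in each library, with Arhgef11Sglt2 DOCA (red, n = 3) left of Sglt2Cre DOCA (blue, n = 5). Symbols give the replicate number, horizontal lines the mean and bars the SD. The groups do not overlap for Mep1a, Mep1b, Ggt1 and Pdzk1.

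Start-site sequences of the members are shown because HNF4 factors are known regulators of proximal tubule genes. The RefSeq table of windows from 250 bases before to 50 after each start (build GRCm38.p6) matched 9 of the 10 members; Mep1b had no entry. The windows were searched on both strands for the HNF4 motif CAAAGTCCA and for CAAAGT, which lies inside it. CAAAGTCCA was in a window of 2 of the 9 members, Treh and Pdzk1, and in 0.475% of all 32851 windows. CAAAGT was in a window of 6 members (Mep1a, Ggt1, Dpep1, Treh, Cdhr2 and Pdzk1) and in 14.4% of all windows, but Ggt1 and Pdzk1 have 4 and 2 windows each. Capitals in the sequences below mark these matches. The first 3 are the 100 bases before the start, and the last is a 30-base stretch just after the first Pdzk1 start. Mep1a lies at chr17:43502774-43502873 on the minus strand, Treh at chr9:44673133-44673232, Cdhr2 at chr13:54701363-54701462 and Pdzk1 at chr3:96830071-96830100, these 3 on the plus strand.
Mep1a: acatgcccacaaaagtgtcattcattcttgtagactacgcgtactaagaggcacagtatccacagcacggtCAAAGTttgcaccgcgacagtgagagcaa
Treh: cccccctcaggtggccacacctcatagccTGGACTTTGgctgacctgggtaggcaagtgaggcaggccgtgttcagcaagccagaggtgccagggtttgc
Cdhr2: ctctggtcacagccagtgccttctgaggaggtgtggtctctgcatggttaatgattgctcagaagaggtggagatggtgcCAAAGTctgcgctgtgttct
Pdzk1: tctttgtcCAAAGTCCAgtgagttccaaga
Of these 4 genes Mep1a passed the test and Treh, Cdhr2 and Pdzk1 did not. A match describes the letters in a window and is not evidence of binding.

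The first comparison concerned the meprins, zinc metalloendopeptidases that are among the most abundant proteases of the rodent brush border. Mep1a encodes the alpha subunit, which can be secreted, and Mep1b the membrane-anchored beta subunit, and the subunits join into homo- and hetero-oligomers. Mep1b (ENSMUSG00000024313) had 2033, 1577 and 1556 normalized counts in Arhgef11Sglt2_DOCA replicates 1, 2 and 3, against 3025, 3749, 3311, 4695 and 5750 in Sglt2Cre_DOCA replicates 1 to 5. All 3 Arhgef11Sglt2_DOCA libraries lay close together and below every Sglt2Cre_DOCA library, and the Sglt2Cre_DOCA libraries were the more scattered group. Mep1b averaged 1722 ± 269.4 in Arhgef11Sglt2_DOCA (SD, n = 3) and 4106 ± 1115 in Sglt2Cre_DOCA (SD, n = 5). On the log2 scale it fell by 1.02 (SE 0.17, limma adjusted p = 0.023), with an interval of -1.41 to -0.63 (95%), and the two-sided exact permutation p was 0.0179, the smallest that 3 against 5 libraries can give. By unadjusted limma p it ranked 114th of all genes tested. Relative to the early proximal tubule markers of the same library the difference was -0.70 (limma adjusted p = 0.0396), beside a shift of 0.32 in the median of all genes.

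Mep1a (ENSMUSG00000023914) had 41162, 31085 and 32848 normalized counts in Arhgef11Sglt2_DOCA replicates 1, 2 and 3. In Sglt2Cre_DOCA replicates 1 to 5 it had 51786, 50377, 51854, 56667 and 61804. Every Arhgef11Sglt2_DOCA library was again below every Sglt2Cre_DOCA library, with replicate 1 the nearest to them. The means were 35032 ± 5382 in Arhgef11Sglt2_DOCA (SD, n = 3) and 54497 ± 4728 in Sglt2Cre_DOCA (SD, n = 5), a log2 difference of -0.64 (SE 0.12, 95% interval -0.90 to -0.37, limma adjusted p = 0.0331, exact permutation p = 0.0179). Relative to the early proximal tubule markers the difference was -0.31 and did not pass (limma adjusted p = 0.279).

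The meprin calls depended on single libraries. Mep1b passed when any 1 library was left out other than Arhgef11Sglt2_DOCA replicate 3 (limma adjusted p = 0.1) or Sglt2Cre_DOCA replicate 4 (limma adjusted p = 0.0715). Mep1a lost its call in 6 of the 8 cases, without replicate 2 or 3 of Arhgef11Sglt2_DOCA (limma adjusted p = 0.0614 and 0.123) and without replicate 1, 3, 4 or 5 of Sglt2Cre_DOCA (limma adjusted p = 0.0553, 0.067, 0.0929 and 0.0776). The log2 differences themselves stayed between -1.12 and -0.91 for Mep1b and between -0.76 and -0.56 for Mep1a. The library names hold running numbers with a gap between a lower and an upper range. The labels name 2 experiments as the source of the kidneys, and whether the ranges mark them is not stated. Within the lower range (2 against 3 libraries) the log2 difference was -0.75 for Mep1b and -0.51 for Mep1a, and neither passed (limma adjusted p = 0.268 and 0.423). Within the upper range (1 against 2 libraries, no test) it was -1.47 and -0.84.

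The ratio of the 2 subunits was compared next. Mep1b counts were 4.94%, 5.07% and 4.74% of Mep1a counts in Arhgef11Sglt2_DOCA replicates 1, 2 and 3, against 5.84%, 7.44%, 6.39%, 8.29% and 9.30% in Sglt2Cre_DOCA replicates 1 to 5. The first group was tight and wholly below the second, whose own values spread widely. The highest Sglt2Cre_DOCA ratios, 8.29% and 9.30%, were those of the upper range of library numbers. Arhgef11Sglt2_DOCA replicate 3, also in the upper range, had the lowest ratio of all, 4.74%. The two-sided exact permutation p was 0.0357 (0.0714 when adjusted over the 6 ratios computed), so the difference did not pass after adjustment. All 6 ratios were chosen after the values were seen, and the adjustment does not correct for that choice. The direction of this ratio was already given by the larger log2 difference of Mep1b. These are ratios of counts that are not corrected for transcript length, so they compare libraries and not the 2 subunits. Mep1a was also set against Vil1, which encodes villin, a structural protein of the same microvilli. Mep1a counts were 525% ± 10.5 of Vil1 counts in the Arhgef11Sglt2_DOCA libraries (SD, n = 3) and 714% ± 83.8 in the Sglt2Cre_DOCA libraries (SD, n = 5). The groups did not overlap, but the difference did not pass after adjustment (exact permutation p = 0.0357, adjusted 0.0714). Its direction too was already given, by the larger log2 difference of Mep1a (-0.64, against -0.19 for Vil1).

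**Figure D2:**
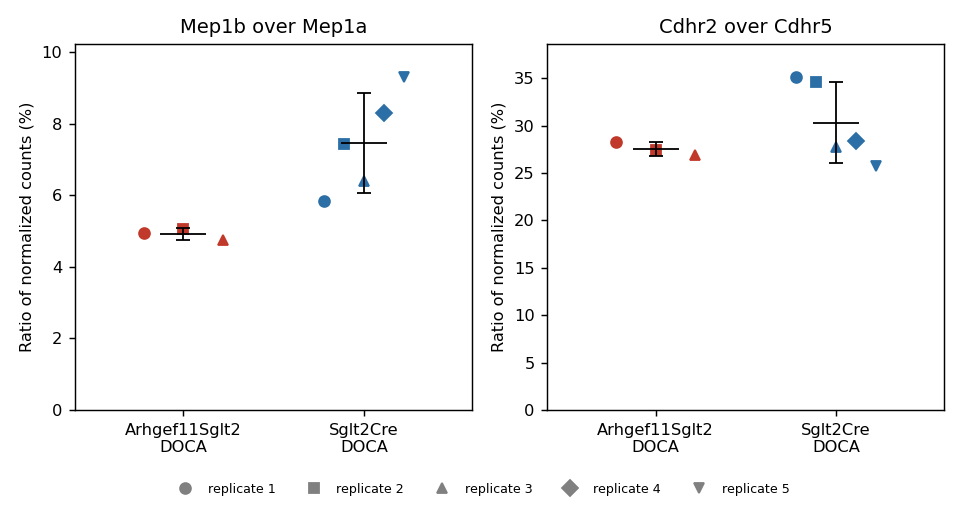
Ratio of normalized counts in percent (linear axis from 0) for Mep1b over Mep1a and Cdhr2 over Cdhr5 in each library, Arhgef11Sglt2 DOCA (red) left of Sglt2Cre DOCA (blue); lines are means and bars SDs. The meprin ratio lies between 4.74% and 5.07% in the Arhgef11Sglt2 DOCA libraries, below all Sglt2Cre DOCA libraries, while the protocadherin ratios overlap.

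Androgen-induced kidney transcripts were also lower in the Arhgef11Sglt2_DOCA libraries, and their order over the libraries was close to that of Mep1b. The list of 6 such genes (Kap, Slco1a1, Odc1, Cyp4b1, Slc22a30 and Cyp2j13) had a mean of -1.11, -1.84 and -1.43 on the log2 scale, relative to the Sglt2Cre_DOCA mean, in Arhgef11Sglt2_DOCA replicates 1, 2 and 3. In Sglt2Cre_DOCA replicates 1 to 5 it was -0.99, 0.12, 0.00, 0.25 and 0.63. Mep1b gave -0.83, -1.11 and -1.13 in Arhgef11Sglt2_DOCA replicates 1, 2 and 3 and -0.35, -0.08, -0.24, 0.20 and 0.47 in the Sglt2Cre_DOCA libraries. Both measures put the Sglt2Cre_DOCA libraries in the same order, with replicate 1 the lowest and replicate 5 the highest. Replicate 1 came near Arhgef11Sglt2_DOCA replicate 1 for the list (-0.99 against -1.11) but less so for Mep1b (-0.35 against -0.83). In the Arhgef11Sglt2_DOCA group both measures were highest in replicate 1. The list was lowest in replicate 2, while Mep1b was nearly equal in replicates 2 and 3 (-1.11 and -1.13). The summed counts of the list were 65620 to 158601 in the Arhgef11Sglt2_DOCA libraries and 159771 to 496001 in the Sglt2Cre_DOCA libraries. Of the 6 genes 2 fell, Slc22a30 and Cyp2j13. Slc22a30 is also among the 9 late proximal tubule markers, of which 3 fell. Their part in the meprin difference was not tested.

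The second comparison concerned the enzymes of glutathione breakdown on the brush border. Ggt1 encodes gamma-glutamyltransferase, which removes the glutamyl group of glutathione, and Dpep1 a dipeptidase that splits the remaining cysteinylglycine. Ggt1 (ENSMUSG00000006345) had 21225, 18336 and 20194 normalized counts in Arhgef11Sglt2_DOCA replicates 1, 2 and 3, against 23292, 25741, 29179, 27571 and 29958 in Sglt2Cre_DOCA replicates 1 to 5. Each Arhgef11Sglt2_DOCA library was below each Sglt2Cre_DOCA library, though replicate 1 of either group came close to the other. The means were 19919 ± 1464 in Arhgef11Sglt2_DOCA (SD, n = 3) and 27148 ± 2695 in Sglt2Cre_DOCA (SD, n = 5), a ratio of 0.734. The log2 difference of -0.43 (SE 0.10, 95% interval -0.66 to -0.21) just missed the threshold over all genes (limma adjusted p = 0.0588, exact permutation p = 0.0179). It was -0.39 within the lower range of library numbers and -0.50 within the upper one, and it passed without Arhgef11Sglt2_DOCA replicate 1 (limma adjusted p = 0.0377). Relative to the early proximal tubule markers it was -0.11 (limma adjusted p = 0.663).

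Dpep1 (ENSMUSG00000019278) had 3352, 6666 and 4902 normalized counts in Arhgef11Sglt2_DOCA replicates 1, 2 and 3, against 6716, 5414, 6803, 7522 and 6970 in Sglt2Cre_DOCA replicates 1 to 5. Replicate 2 of Arhgef11Sglt2_DOCA lay among the Sglt2Cre_DOCA libraries while the other 2 lay below them all. The log2 difference was -0.43 (SE 0.17, limma adjusted p = 0.197, exact permutation p = 0.0357), as large as that of Ggt1 but with a wider interval, -0.82 to -0.04. It was -0.64 without Arhgef11Sglt2_DOCA replicate 2 and -0.20 without replicate 1. Among the non-member genes compared by profile, Slc5a2, which encodes Sglt2, had the profile most like that of Dpep1. The early proximal tubule markers went both ways in replicate 2, where Slc34a1 (142040 normalized counts) and Lrp2 (85850) lay below every Sglt2Cre_DOCA library and Slc6a19 (23738) and Slc5a12 (24377) above. Relative to those markers the Dpep1 difference was -0.11 (limma adjusted p = 0.675). Dpep1 counts were 25.5% ± 10.3 of Ggt1 counts in the Arhgef11Sglt2_DOCA libraries (SD, n = 3) and 24.7% ± 3.21 in the Sglt2Cre_DOCA libraries (SD, n = 5), with overlap (exact permutation p = 0.929).

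Outside the members, 2 genes of glutathione handling passed, in opposite directions. Of the 12 genes of glutathione synthesis and breakdown outside the members, Ggct, the cytosolic gamma-glutamylcyclotransferase, fell to 496.8 ± 87.47 normalized counts in the Arhgef11Sglt2_DOCA libraries, against 990.5 ± 209.5 in the Sglt2Cre_DOCA libraries (limma adjusted p = 0.0401). Oplah, which opens the ring of 5-oxoproline, the product of Ggct, rose to 11491 ± 1666, against 7279 ± 1111 (limma adjusted p = 0.0467). The median log2 difference of the 12 genes was -0.16, and 8 were negative.

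The third comparison concerned the remaining hydrolases. Dpp4 encodes dipeptidyl peptidase 4, which trims dipeptides from peptides with proline or alanine next to the end and is also found on T lymphocytes as CD26. Dpp4 (ENSMUSG00000035000) had 2716, 3096 and 2282 normalized counts in Arhgef11Sglt2_DOCA replicates 1, 2 and 3, against 3420, 3990, 3118, 3021 and 3363 in Sglt2Cre_DOCA replicates 1 to 5. The groups met at Arhgef11Sglt2_DOCA replicate 2, which lay above the lowest Sglt2Cre_DOCA library. The log2 difference was -0.28 (SE 0.10, 95% interval -0.51 to -0.05, limma adjusted p = 0.163, exact permutation p = 0.0536), and -0.18 without Arhgef11Sglt2_DOCA replicate 3. The 6 T lymphocyte markers were low, with summed counts of 169.2 to 328.9 in the Arhgef11Sglt2_DOCA libraries and 243.1 to 582.1 in the Sglt2Cre_DOCA libraries, none was at 0, and none passed; their part in the Dpp4 values was not tested.

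Treh (ENSMUSG00000032098) encodes trehalase, which splits the disaccharide trehalose. It had 2357, 3097 and 1975 normalized counts in Arhgef11Sglt2_DOCA replicates 1, 2 and 3, and the Sglt2Cre_DOCA libraries spanned 2411 to 3338. Replicate 2 lay within that span and the other 2 libraries below it. The log2 difference was -0.24 (SE 0.13, 95% interval -0.52 to 0.05, limma adjusted p = 0.319, exact permutation p = 0.179). It was -0.38 without Arhgef11Sglt2_DOCA replicate 2 and -0.11 without replicate 3. Within the lower range of library numbers it was -0.06 and within the upper one -0.56.

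Hydrolases of the same membrane outside the members gave 2 calls, both lower. Of 14 such genes, Mme, which encodes the endopeptidase neprilysin, fell to 6642 ± 886.8 normalized counts in the Arhgef11Sglt2_DOCA libraries, against 10116 ± 900.5 in the Sglt2Cre_DOCA libraries (log2 difference -0.57, limma adjusted p = 0.0264). Mgam, a maltase-glucoamylase, fell to 4501 ± 924.3, against 6588 ± 229.5 (log2 difference -0.52, limma adjusted p = 0.0467). The log2 difference was negative for 12 of the 14 and ran from -0.57 to 0.26, with a median of -0.29. No gene of this list rose. Among 6 measured genes of meprin inhibitors and of proteases that activate zymogens at the cell surface, none passed. The 2 with the smallest p were St14, which encodes matriptase, at 4828 ± 460.8 in the Arhgef11Sglt2_DOCA libraries against 4260 ± 355.4 normalized counts in the Sglt2Cre_DOCA libraries, and Klk1, tissue kallikrein, at 40842 ± 20683 against 49792 ± 6025 (limma adjusted p = 0.309 and 0.424).

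The fourth comparison concerned the microvillus itself. Pdzk1 encodes a scaffold with several PDZ domains that binds the tails of apical transporters, Vil1 the actin-bundling protein villin, and Cdhr2 and Cdhr5 the protocadherins that join microvillus tips. Pdzk1 (ENSMUSG00000038298) had 26107, 26071 and 13625 normalized counts in Arhgef11Sglt2_DOCA replicates 1, 2 and 3, against 32108, 42901, 36557, 35920 and 33616 in Sglt2Cre_DOCA replicates 1 to 5. All 3 Arhgef11Sglt2_DOCA libraries were below every Sglt2Cre_DOCA library, and replicate 3 stood far under the other 2. The means were 21934 ± 7196 in Arhgef11Sglt2_DOCA (SD, n = 3) and 36221 ± 4139 in Sglt2Cre_DOCA (SD, n = 5), a ratio of 0.606. The log2 difference of -0.76 (SE 0.20, 95% interval -1.21 to -0.31) did not pass over all genes (limma adjusted p = 0.0788, exact permutation p = 0.0179). Without replicate 3 of Arhgef11Sglt2_DOCA it was -0.46, and without replicate 1 it was -0.91 and passed (limma adjusted p = 0.0383). Within the lower range of library numbers it was -0.49 and within the upper one -1.32, and relative to the early proximal tubule markers it was -0.44 (limma adjusted p = 0.204). Pdzk1 counts were 329% ± 106 of Vil1 counts in the Arhgef11Sglt2_DOCA libraries (SD, n = 3) and 473% ± 51.1 in the Sglt2Cre_DOCA libraries (SD, n = 5). The groups overlapped (exact permutation p = 0.0357, adjusted 0.0714 over 6 ratios). The direction of this ratio was already given by the larger log2 difference of Pdzk1 (-0.76, against -0.19 for Vil1).

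The structural genes did not pass the threshold. Vil1 (ENSMUSG00000026175) had 7928, 5985 and 6112 normalized counts in Arhgef11Sglt2_DOCA replicates 1, 2 and 3, against 6565, 7721, 8447, 8003 and 7659 in Sglt2Cre_DOCA replicates 1 to 5. Replicate 1 lay inside the Sglt2Cre_DOCA span and the other 2 below it, and the log2 difference was -0.19 (SE 0.11, 95% interval -0.43 to 0.05, limma adjusted p = 0.328), or -0.31 without replicate 1. Cdhr2 (ENSMUSG00000034918) spanned 2022 to 2743 in the Arhgef11Sglt2_DOCA libraries and 2279 to 3190 in the Sglt2Cre_DOCA libraries, with a log2 difference of -0.15 (SE 0.11, 95% interval -0.41 to 0.10, limma adjusted p = 0.476), or -0.04 without Arhgef11Sglt2_DOCA replicate 3. Cdhr5 (ENSMUSG00000025497) had 9692, 9639 and 7529 in Arhgef11Sglt2_DOCA replicates 1, 2 and 3 and 8800 to 10388 in the Sglt2Cre_DOCA libraries. Its first 2 replicates lay inside the Sglt2Cre_DOCA span, and the log2 difference was -0.05 (SE 0.10, 95% interval -0.27 to 0.16, limma adjusted p = 0.788). The sign of the Cdhr5 difference rested on replicate 3 of Arhgef11Sglt2_DOCA, without which it was 0.06. These intervals do not show that the genes were unchanged. Cdhr2 counts were 27.5% ± 0.73 of Cdhr5 counts in the Arhgef11Sglt2_DOCA libraries (SD, n = 3) and 30.3% ± 4.27 in the Sglt2Cre_DOCA libraries (SD, n = 5), and the groups overlapped (exact permutation p = 0.321, adjusted 0.482 over 6 ratios).

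**Figure D3:**
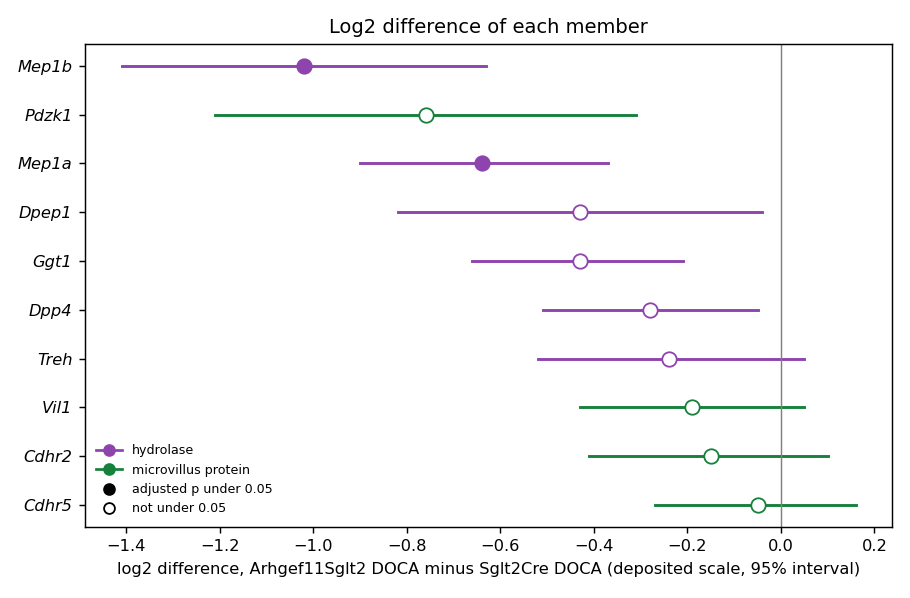
Log2 difference (Arhgef11Sglt2 DOCA minus Sglt2Cre DOCA, deposited scale) of each member with its 95% interval, hydrolases in purple and microvillus genes in green. Filled points, Mep1b and Mep1a, passed an adjusted p of 0.05, and the values run from -1.02 for Mep1b to -0.05 for Cdhr5.

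No other gene of the microvillus core, its membrane linkers or the intermicrovillar adhesion complex passed the limma test, of 20 measured (0 called). The groups did not overlap for 5 genes that were lower and 2 that were higher. Of all genes 8.14% were lower without overlap, and 12.9% of the 3444 genes at least as abundant as the lowest member. The share of all genes higher without overlap was not computed. The log2 differences of this list ran from -0.48 to 0.16 with a median of -0.09, and 14 were negative. The 2 with the smallest p were Tmigd1, an adhesion molecule of the brush border, at 4822 ± 945.4 normalized counts in the Arhgef11Sglt2_DOCA libraries against 6907 ± 625 in the Sglt2Cre_DOCA libraries (limma adjusted p = 0.0596), and Calml4, a light chain of the adhesion complex's myosin, at 4444 ± 218.2 against 5599 ± 397.9 (limma adjusted p = 0.0686). Both had no overlap between the groups.

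Among 12 apical transporters and other partners of Pdzk1 or NHERF1, 1 fell and 1 rose. Slc34a1, the main sodium-phosphate cotransporter of the proximal tubule, fell to 109458 ± 28374 normalized counts in the Arhgef11Sglt2_DOCA libraries, against 177205 ± 9097 in the Sglt2Cre_DOCA libraries (log2 difference -0.72, limma adjusted p = 0.0491). Abcc4, an efflux pump for organic anions, rose to 4350 ± 741.5, against 2711 ± 329.1 (log2 difference 0.59, limma adjusted p = 0.0394). Pdzk1 counts were 28.9%, 18.4% and 14.2% of Slc34a1 counts in Arhgef11Sglt2_DOCA replicates 1, 2 and 3 and 18.0% to 26.3% in the Sglt2Cre_DOCA libraries (exact permutation p = 0.911). Both transcripts were lower in the first group, but they were lowest in different libraries, Slc34a1 in replicate 1 (90180) and Pdzk1 in replicate 3. None of 6 measured transcription factors known to act on brush border genes passed; Hnf4a had 25236 ± 4608 normalized counts in the Arhgef11Sglt2_DOCA libraries against 28326 ± 1127 in the Sglt2Cre_DOCA libraries (limma adjusted p = 0.39).

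**Figure D4:**
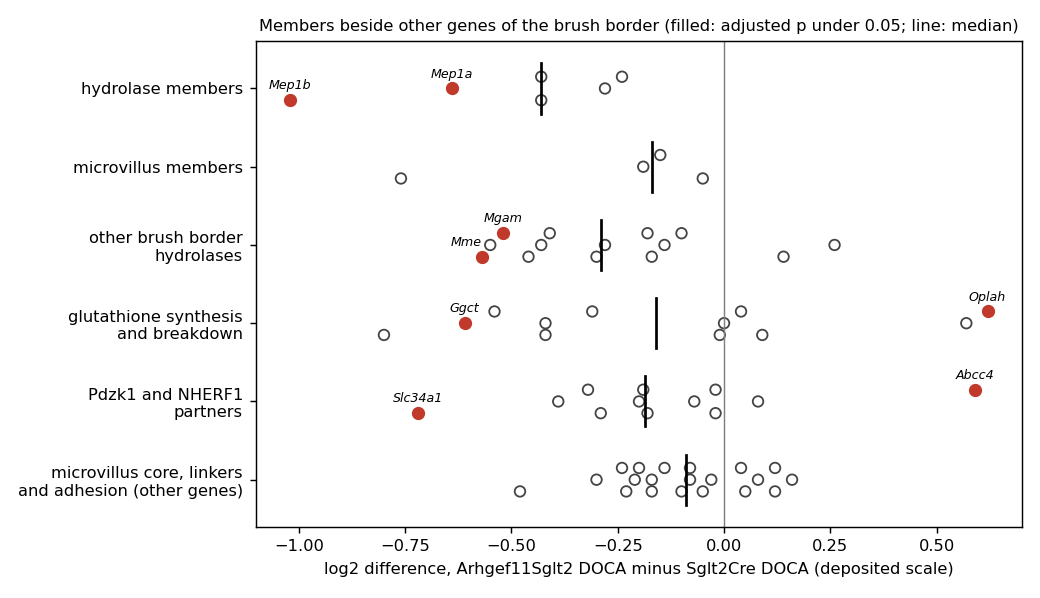
Log2 differences (Arhgef11Sglt2 DOCA minus Sglt2Cre DOCA, deposited scale) of the members and of 4 further lists; each circle is a gene, filled and named where the adjusted p was under 0.05, and vertical lines are medians. The hydrolase members have the lowest median, -0.43, and the other microvillus genes lie nearest to 0 with a median of -0.09.

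The 3 Arhgef11Sglt2_DOCA libraries did not share 1 profile over the members. Replicate 3 was below the Sglt2Cre_DOCA mean for all 10 members and below every Sglt2Cre_DOCA library for all 10. Replicate 1 was below every Sglt2Cre_DOCA library for 7 members and replicate 2 for 5. The mean over the 6 hydrolases, relative to the Sglt2Cre_DOCA mean on the log2 scale, was -0.50, -0.42 and -0.60 in replicates 1, 2 and 3. In replicate 2 the mean came from Mep1a, Mep1b and Ggt1 (-0.79, -1.11 and -0.55), while Dpp4, Dpep1 and Treh lay within the Sglt2Cre_DOCA span (-0.10, 0.00 and 0.05). For the 4 microvillus genes it was -0.09, -0.20 and -0.58, and Pdzk1 (-0.46, -0.46 and -1.37) made up most of it. In the Sglt2Cre_DOCA libraries these means stayed between -0.11 and 0.15. Dpep1 was lowest in replicate 1 (-0.89) and at the Sglt2Cre_DOCA mean in replicate 2 (0.00), while Mep1a was lowest in replicate 2 (-0.79).

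Genes whose values followed each member most closely over the 8 libraries were found by the root mean square difference between mean-centred log2 values. Mep1a was nearest to Mme (0.093) and then Samd9l (0.095), small distances beside its own SD of 0.34 over the libraries. Mep1b was followed less closely, by Macrod2 and Cckar (both 0.16) and St8sia1 (0.19), with an SD of 0.56. Ggt1 was nearest to Arhgap18 (0.058), Sap30 (0.078) and Pth1r (0.082). Dpep1 was nearest to Slc5a2 (0.074), Sord (0.095) and F13b (0.11), and Treh to Fbp1 (0.061), Slc3a1 (0.076) and Mpp7 (0.082). For Pdzk1 the nearest genes were Slc8a1 (0.12), Sfrp1 (0.14) and Fmo1 (0.14). The members with small differences had near neighbours of every kind, Dpp4 with Lrba, Tmem116 and Prps2, Vil1 with Zfyve16, Sec61b and Riox2, Cdhr2 with Chka, Atp6v0e and Mpnd, and Cdhr5 with Smim1, Tpd52 and Preb, at distances of 0.051 to 0.067. Among the members, Mep1a and Ggt1 were nearest to each other (0.14, beside SDs of 0.34 and 0.24). Cdhr2 and Cdhr5 were also nearest to each other (0.13). Their own SDs were only 0.17 and 0.12, so that distance does not show a close likeness. The nearest member to Pdzk1, Mep1a, was at 0.31. These distances describe 8 libraries and were not tested.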

How the data were processed

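Per the labels' protocols, 8 kidney RNA samples were made into stranded mRNA libraries with a TruSeq kit, pooled and sequenced with paired ends on a NextSeq 2000. The submitters' processing notes name the tools Salmon (1.10.0) and DESeq2 and the build GRCm39, without an annotation, a gene filter or a DESeq2 version. In the deposited table the authors give variance-stabilized log2 expression, as judged from the values: every library has the same lowest value, 8.1275 (279.7 when not logged), which stands for a zero count. Normalized counts were obtained by inverting the closed form of that transformation. Read depth before scaling is not given, so no counting intervals are printed.

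limma 3.58.1 (R 4.3.3) fitted group as the only term to all 15948 genes and 8 libraries with a mean-variance trend (6 residual degrees of freedom); p-values were Benjamini-Hochberg adjusted over all genes at 0.05. The exact permutation test is two-sided on the absolute difference of means over 56 arrangements (smallest p 0.0179). It was run, unadjusted, for each of the 10 members, for each gene of the other lists and for Arhgef11. It was also run for each of the 6 ratios on the log2 scale. Only values of members and ratios are given. For the ratios, values adjusted over the 6 are given where stated. The procedure was tested on simulated data. Symbols matched 15902 identifiers (99.71%); the gene table is of another build, so no gene coordinates are given. Named genes were the members, genes of the listed sets that were called or had the 2 smallest p, and the 3 nearest profiles (some of these are not reported here); the ratios, Mep1b's androgen comparison and the promoter windows shown were chosen after values were seen. Members and lists were chosen with earlier results of these data known. Alternatives covered filter, scaling, pseudocounts of 1 and 10, variance moderation, weights, blocks, threshold, and each library left out.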

Additional observations from a re-analysis of the deposited data

Results flagged for a closer look

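In 1 of 24 transcripts and ratios examined, a Sglt2Cre_DOCA library lay far from the rest of its group. Cdhr5 had 10388 normalized counts in Sglt2Cre_DOCA replicate 3, while the other 4 libraries of that group lay between 8800 and 9229. The gap to the nearest library exceeded 0.71 of the group's range. Chance flags about 1 in 20 groups. The 3 Arhgef11Sglt2_DOCA libraries are too few for this test.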

How the results depend on the processing

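Mep1a and Mep1b stayed lower under all 22 alternatives, with log2 differences of -0.84 to -0.31 and -1.47 to -0.70. The filter, the variance moderation and the threshold cannot change these differences, and most other alternatives share nearly all libraries. The calls held less well. Mep1a did not pass relative to the early proximal tubule markers (limma adjusted p = 0.279). With 1 of the 8 libraries left out, Mep1a lost its call in 6 cases and Mep1b in 2. Replicate numbers do not pair the samples (correlations of same-numbered deviations -0.186, -0.0862 and -0.0118; each Arhgef11Sglt2_DOCA library correlated best with another number). With the replicate block no gene was called (0 higher, 0 lower, 0 members), and the differences were -0.55 (Mep1a) and -0.80 (Mep1b). Within the lower range of library numbers likewise 0 genes and 0 members were called, with -0.51 for Mep1a, -0.75 for Mep1b and, reversed, 0.03 for Cdhr5. Within the upper range the differences were -0.84 (Mep1a), -1.47 (Mep1b), -0.56 (Treh), -0.33 (Vil1), -0.24 (Cdhr5) and -1.32 (Pdzk1). The range as a block brought Pdzk1 past the threshold (-0.79). Relative to early proximal tubule markers 1 member was called; Mep1a was -0.31, Pdzk1 -0.44, Ggt1 and Dpep1 -0.11 each, 425 genes were higher and 39 lower, and the sign turned for Dpp4 (0.04), Treh (0.09), Vil1 (0.13), Cdhr2 (0.17) and Cdhr5 (0.27). Ggt1 passed without a mean-variance trend (-0.43) and with array weights (-0.50). Called genes numbered 344 higher and 530 lower with array weights, 168 higher with equal totals, and 368 higher, 670 lower and 4 members at an adjusted p of 0.1, where Ggt1 (-0.43) and Pdzk1 (-0.76) were added.

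Leaving out 1 library gave 4 to 578 genes higher, 20 to 756 lower, and 0 to 4 members lower. The ranges of log2 differences were -0.76 to -0.56 (Mep1a), -1.12 to -0.91 (Mep1b), -0.49 to -0.38 (Ggt1), -0.91 to -0.46 (Pdzk1), -0.37 to -0.18 (Dpp4), -0.64 to -0.20 (Dpep1), -0.38 to -0.11 (Treh), -0.31 to -0.13 (Vil1), -0.22 to -0.04 (Cdhr2) and -0.11 to 0.06 (Cdhr5, reversed without Arhgef11Sglt2_DOCA replicate 3). The causes were not tested. With 3 and 5 libraries the smaller differences lie within their intervals of 0 and were not resolved.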
